A study of Mus musculus with 12 samples.

Results

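The genes described here are 32 genes of the endoplasmic reticulum (ER) that encode its chaperones, protein disulfide isomerases, stress sensors, degradation machinery and export machinery, out of 22456 genes with a value in liver RNA of 12 mice. They were chosen by name as ER folding and unfolded protein response genes, and the list was selected on the response of these same libraries to a meal, so that differences between fasted and refed liver are given below as a description, and counts past a threshold in that contrast are printed for reference and support nothing. No threshold on a value entered the choice, and all 32 were found in the expression table. The mice were male, of mixed adult ages, on the BALB/cByJ background, and were either wild type or Lpin1-/- (the fatty liver dystrophy mutant, which lacks lipin 1 in the whole body and not in liver alone), with 3 mice in each of 4 groups. Fasted wild-type and fasted Lpin1-/- livers were taken after 16 hours without food, in single cages. Refed wild-type and refed Lpin1-/- livers were taken after the same fast followed by 5 hours with chow, so that feeding and the hour of tissue collection cannot be told apart. Each library came from 1 mouse.

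Proteins destined for secretion or for membranes enter the ER through a membrane channel, where chaperones such as BiP (encoded by Hspa5) hold them and disulfide isomerases pair their cysteines before coated vesicles carry them to the Golgi. When unfolded protein accumulates, the sensors IRE1α (Ern1), ATF6 and PERK start the unfolded protein response: IRE1α splices the Xbp1 mRNA, ATF6 is cleaved to an active transcription factor, and PERK slows translation while favouring ATF4. The liver makes most plasma proteins and the lipoproteins, so its hepatocytes are rich in ER, and a meal is a known stimulus of ER folding genes in this tissue.

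Depth is not recorded in the files, and only relative depth could be estimated, from the ratios of low values: it ranged from 0.865 to 1.16 times that of the first fasted wild-type library. Lpin1, the mutated gene, had 0.0368 to 0.0597 RPKM (reads scaled to transcript length and to the mapped reads of the library, so that levels of different genes can be set side by side) in the fasted Lpin1-/- libraries against 0.726 to 21.96 in fasted wild type, and 0.00573 to 0.0238 in refed Lpin1-/- against 0.784 to 2.92 in refed wild type, so every library matched its labelled genotype without overlap. Its log2 fold change was −2.19 in fasted liver (SE 0.72, limma adjusted p = 0.0562) and −1.55 in refed liver (SE 0.72, limma adjusted p = 0.232). Hepatocyte markers were abundant in all libraries, with a sum over 7 genes of 34556.7 to 80333.9 RPKM. Of 10 measured pancreatic acinar genes, a source of abundant ER chaperone mRNA if pancreas were taken with the liver, 8 stayed at or under 0.2 RPKM in every library and only Cela1 had a mean of at least 0.5. The log2 value rose with exon length in the first fasted wild-type library (slope 0.218 per doubling) and the first refed Lpin1-/- library (0.208) and fell in the first fasted Lpin1-/- library (−0.245) and the second fasted wild-type library (−0.146), while the other 8 lay between −0.057 and 0.079. In the first fasted wild-type library the mean log2 deviation from the average over all libraries was −1.136 for the 16 members with shorter exons and −0.247 for the 16 with longer exons. Markers of other liver cells differed within groups. In refed wild-type replicate 2 the 7 macrophage markers summed to 518.8 RPKM, where the lowest sum of its group was 67.07, and 6 of the 7 were highest of the group there (Marco at 47.16 RPKM against 0.673 and 0.674) while Clec4f, at 32.41, lay within it. This library also had the lowest value of its group for every hepatocyte marker (Alb at 11776.8 RPKM against 20772.3 and 26536.2). It gave the lowest hepatocyte sum of all libraries, 34556.7. For 20 of the 32 members it had the lowest value of its group. In fasted Lpin1-/- replicate 1 the macrophage markers summed to 574.6 RPKM against a lowest sum of 221.3, and the 5 cholangiocyte markers to 451.5 against 24.86, of which Spp1 gave 430.4. The part of these differences in the results was not tested, and in whole liver fewer cells of a type cannot be told apart from less RNA per cell.

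The promoters of the genes are given next. RefSeq promoter windows (GRCm38.p6, from 250 bases before to 50 bases after the annotated start) were at hand for 26 of the 32 members. The others, named only, were Atf6, Sec11c, Derl1, Sec61a1, Hyou1 and Manf. The ER stress element is the site at which ATF6 and the CCAAT-binding factor NF-Y are known to act together; it was first described in chaperone promoters of this kind, and is made of CCAAT and CCACG separated by 9 bases. Searched on both strands, it was present in 9 of the 26 members (34.6%), against 37 of all 27025 genes with a window (0.137%) and 15 of the 8752 genes tested in liver (0.171%). No promoter of the 91 genes with a window in a wider list of 119 other ER genes held it. The members were chosen by name as genes of the kind whose promoters first gave this element, and the wider list leaves them out. These shares therefore follow in part from the choice and are a description, not a test. The 10 elements of the 9 members follow, each read on the strand that begins with CCAAT, with the fixed letters in capitals.
Calr element: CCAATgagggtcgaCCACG
Canx element: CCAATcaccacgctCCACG
Creld2 element: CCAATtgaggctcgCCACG
Derl3 element: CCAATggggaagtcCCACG
Dnajc3 element: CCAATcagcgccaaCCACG
Hsp90b1 element at -212: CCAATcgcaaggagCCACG
Hsp90b1 element at -107: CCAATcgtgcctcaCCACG
Hspa5 element: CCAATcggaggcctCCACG
Pdia6 element: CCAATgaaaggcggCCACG
Syvn1 element: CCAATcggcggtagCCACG
The spacer of 9 bases differed among all of these, whereas the flanks were alike by the definition of the motif. The shorter ER stress element II, ATTGG and CCACG separated by 1 base, was found in 2 further members (7.69%). It was found in 1 gene of the wider list (1.1%), 0.0914% of the genes tested in liver and 0.0444% of all genes with a window.
Dnajb11 element II: ATTGGcCCACG
Herpud1 element II: ATTGGgCCACG
With both elements counted, 11 of 26 members held a match. The XBP1 core ACGTGG was found in 9 members (34.6%), a share close to the 34.1% of the wider ER list. It was found in 13.3% of the genes tested in liver and 9.4% of all genes with a window. Its full form TGACGTGG was found in Sec24d alone among the members (3.85%), against 8.79% of the wider list, 1.01% of the genes tested in liver and 0.714% of all. In Herpud1 the XBP1 core, on the opposite strand, overlapped the ER stress element II. A match is a description of letters in this window and says nothing of binding in these livers.

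The whole windows of 4 genes show where the elements lie in genes to which the results below return: Hspa5 as the canonical target, Hsp90b1 with 2 elements, Derl3 with the widest difference between genotypes in refed liver, and Herpud1, which behaved unlike the rest. Capitals mark the fixed letters of the elements on either strand.
Hspa5 promoter, chr2:34771840-34772139, plus strand: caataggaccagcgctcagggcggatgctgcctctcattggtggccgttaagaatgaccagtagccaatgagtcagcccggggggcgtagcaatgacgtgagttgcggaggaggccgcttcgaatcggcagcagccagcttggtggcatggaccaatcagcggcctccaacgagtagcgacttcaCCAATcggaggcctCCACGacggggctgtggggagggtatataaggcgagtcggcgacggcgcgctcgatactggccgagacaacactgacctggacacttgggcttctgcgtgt
Hsp90b1 promoter, chr10:86705395-86705694, minus strand: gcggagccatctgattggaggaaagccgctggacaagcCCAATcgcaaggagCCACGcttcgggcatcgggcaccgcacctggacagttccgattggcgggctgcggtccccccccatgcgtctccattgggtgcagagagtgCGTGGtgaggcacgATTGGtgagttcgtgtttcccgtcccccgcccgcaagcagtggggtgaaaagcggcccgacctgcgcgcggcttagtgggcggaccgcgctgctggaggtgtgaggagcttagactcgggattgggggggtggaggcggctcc
Derl3 promoter, chr10:75893148-75893447, plus strand: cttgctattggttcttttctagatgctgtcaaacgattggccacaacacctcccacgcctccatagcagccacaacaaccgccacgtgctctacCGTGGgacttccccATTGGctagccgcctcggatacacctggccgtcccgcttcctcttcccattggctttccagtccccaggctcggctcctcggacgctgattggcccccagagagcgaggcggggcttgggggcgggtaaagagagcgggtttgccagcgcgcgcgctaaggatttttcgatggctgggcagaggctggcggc
Herpud1 promoter, chr8:94386179-94386478, plus strand: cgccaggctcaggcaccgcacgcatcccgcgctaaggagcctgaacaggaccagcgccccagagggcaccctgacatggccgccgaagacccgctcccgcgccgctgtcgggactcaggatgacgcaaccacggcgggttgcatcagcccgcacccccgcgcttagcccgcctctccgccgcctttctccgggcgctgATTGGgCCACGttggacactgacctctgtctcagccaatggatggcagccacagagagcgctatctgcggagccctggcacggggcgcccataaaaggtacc
The element begins 65 bases before the start in Hspa5 (position −65) and at −212 and −107 in Hsp90b1. In Derl3 it begins at −156 on the opposite strand, and in Herpud1 the ER stress element II begins at −52.

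**Figure D1:**
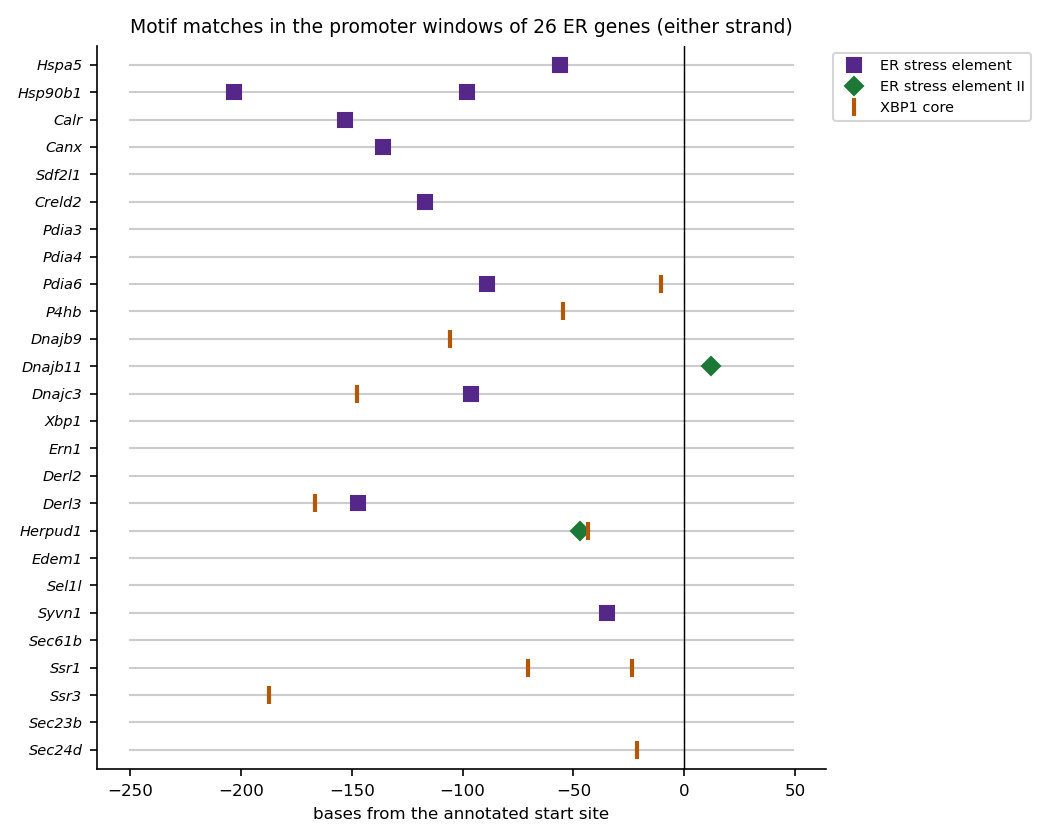
Position of motif matches, in bases from the annotated start site, in the promoter windows of 26 members; grey lines are the windows, squares the ER stress element, diamonds the ER stress element II and bars the XBP1 core. Squares appear in 9 genes, all upstream of the start, and diamonds in Herpud1 and Dnajb11.

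Taken over the 4 groups, the members formed a small share of liver mRNA that was largest in refed wild-type liver. Their summed RPKM made up 0.37% to 0.435% of the table in the 3 fasted wild-type libraries and 0.426% to 0.541% in fasted Lpin1-/-. It made up 1.01% to 1.47% in refed wild type and 0.596% to 0.749% in refed Lpin1-/-. The 4 groups thus kept apart on feeding state, and the refed libraries kept apart on genotype. The mean was highest in refed wild type for 30 of the 32 members, the exceptions being Herpud1, highest in fasted Lpin1-/-, and Atf6, highest in refed Lpin1-/-.

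Refed liver had more of nearly every member in wild-type mice, and of most members in Lpin1-/- mice. The log2 fold change, refed over fasted, was positive for 31 of 32 members in wild type, with a median of 1.19 (all 11507 genes tested, 0.185), and for 28 of 32 in Lpin1-/-, with a median of 0.649 (all genes, 0.25). For reference, and not as a test, 18 members in wild type lay past the limma threshold used below (Benjamini-Hochberg adjusted p under 0.05 over all genes), all higher after feeding, beside a background of 1.72% of all genes called, 1.52% higher and 0.2% lower. In Lpin1-/- 16 members lay past it, 15 higher and 1 lower, beside 20.7% of all genes, 17.8% higher and 2.92% lower. The 3 refed libraries lay wholly apart from the 3 fasted ones for 26 members in wild type (18.1% of all genes) and 17 in Lpin1-/- (46.8%). Because this contrast chose the members, nothing is read from these counts. Division of the libraries by their median ratios to a geometric mean library moved the median of all genes from 0.185 to 0.016 in wild type and from 0.25 to −0.028 in Lpin1-/-, and the member medians to 0.973 and 0.288.

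**Figure D2:**
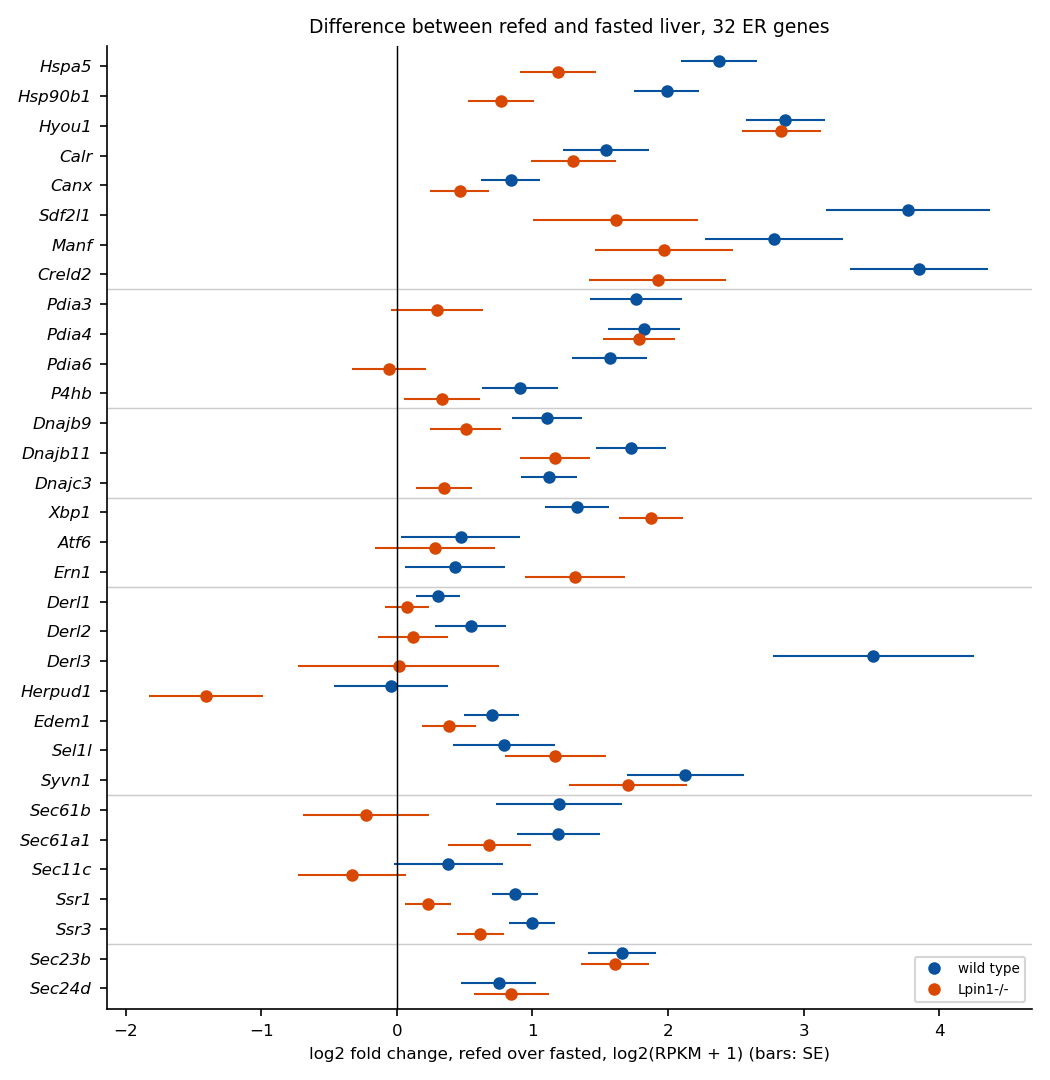
Log2 fold change of refed over fasted liver on log2(RPKM + 1), with SE, for the 32 members in wild type (blue) and Lpin1-/- (orange); lines separate the roles. Wild type lies to the right of 0 for 31 members. In Lpin1-/-, Derl3, Pdia6, Derl1 and Derl2 lie nearest to 0, and Herpud1 lies at −1.41.

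Between genotypes, 7 members were lower in Lpin1-/- in refed liver, and in fasted liver 3 were lower and 1 higher. The log2 fold change of Lpin1-/- over wild type was negative for 30 of 32 members in refed liver, with a median of −0.683 (all genes, −0.068). The threshold was passed by 7 members (Hsp90b1, Creld2, Pdia3, Pdia4, Pdia6, Derl3 and Ssr1), all lower in Lpin1-/-, beside 6.67% of all genes called, 2.6% higher and 4.07% lower. The groups did not overlap for 24 members, where 33.9% of all genes did not overlap. In fasted liver the median was −0.071 (all genes, −0.143) with 11 positive and 21 negative values, and 4 members passed: Herpud1 was higher in Lpin1-/-, and Pdia4, Xbp1 and Hyou1 were lower. There the background was 18.8% of all genes called, 5.63% higher and 13.2% lower, so the members' share of 4 in 32 was no larger. The groups did not overlap for 6 members, against 32.9% of all genes. The refed and fasted wild-type libraries of these tests are those whose difference selected the members, so the tests are not independent of that choice. After the same division the calls were 0 higher and 5 lower in refed liver and 2 higher and 1 lower in fasted liver, and the member median in fasted liver changed sign, to 0.131. Leaving out 1 library at a time gave 2 to 10 members in refed liver, with 3 without refed wild-type replicate 1, 4 without replicate 3 (Herpud1, higher in Lpin1-/-, was 1 of these), 2 without refed Lpin1-/- replicate 1 and 4 without replicate 3. In fasted liver it gave 2 to 4, with 2 without fasted wild-type replicate 3, without fasted Lpin1-/- replicate 1 or 3, or without refed Lpin1-/- replicate 3.

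No member passed the threshold for the interaction, that is, the feeding response of Lpin1-/- minus that of wild type, where 1.28% of all genes did. The limma fit gave 10 of 32 members at an unadjusted p under 0.05, beside 2082 of all 11507 genes. The value was negative for 28 of 32, beside 5066 of all genes, with a median of −0.534 (all genes, 0.094). The interaction is built from the feeding responses on which the members were selected. Its counts, signs and median are therefore not independent of that choice and are given as a description. The smallest adjusted p was that of Pdia6, at −1.63 (SE 0.387, limma adjusted p = 0.0666). Without fasted Lpin1-/- replicate 3, without refed wild-type replicate 2, or with the length trend removed, 1 member passed: Derl3 without the refed library (−4.61, limma adjusted p = 0.00688, against −3.50 and 0.123 with all libraries) and Pdia6 in the other 2 settings (limma adjusted p = 0.0401 and 0.0449).

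**Figure D3:**
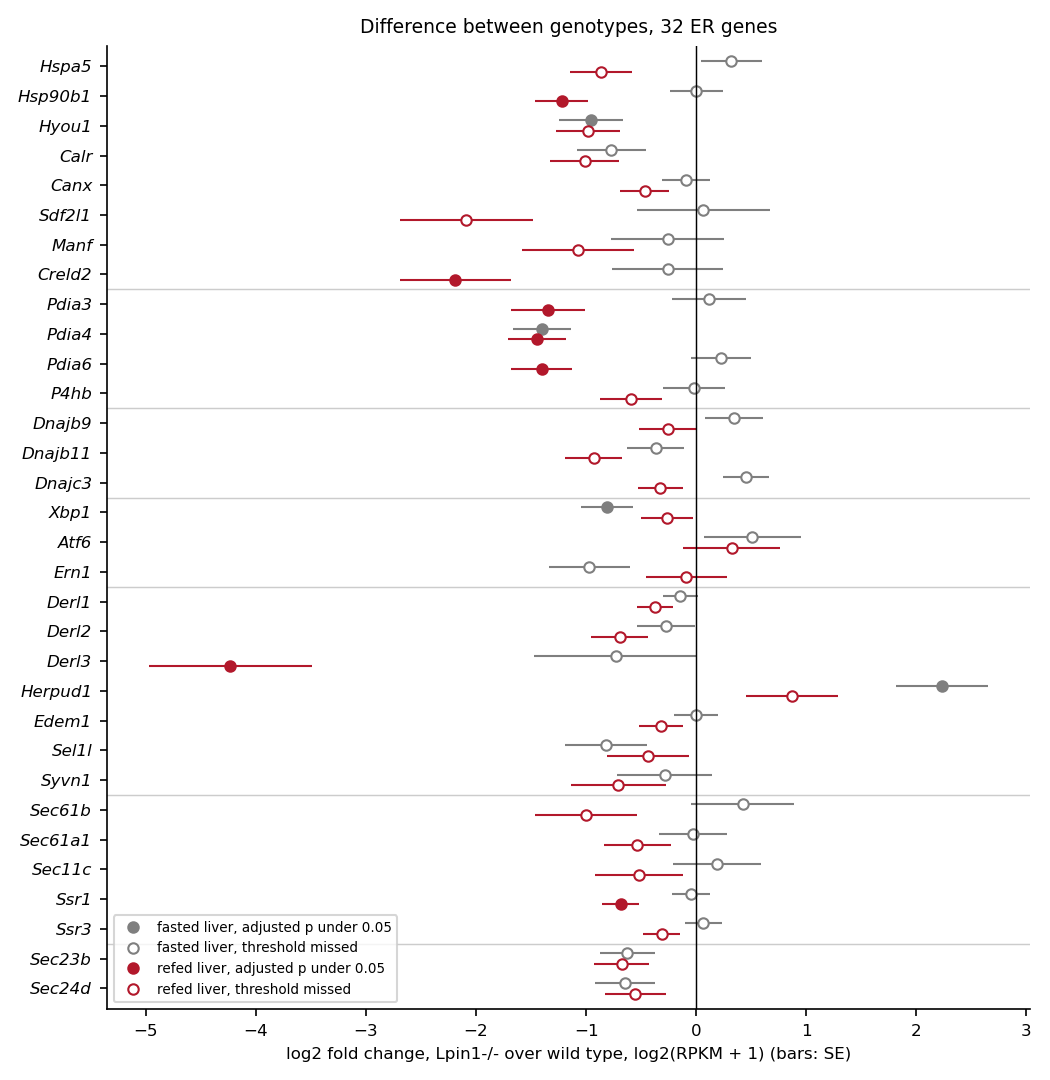
Log2 fold change of Lpin1-/- over wild type on log2(RPKM + 1), with SE, for the 32 members in fasted (grey) and refed (red) liver; filled circles passed an adjusted p of 0.05. Red circles lie left of 0 for 30 members, with Derl3 farthest at −4.23, and the grey circle of Herpud1 lies at 2.23.

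Among the 8 chaperones and their partners, every member had a higher mean in refed than in fasted liver of both genotypes, with a median log2 fold change of 2.58 in wild type and 1.46 in Lpin1-/-. BiP (Hspa5, ENSMUSG00000026864.13, chromosome 2 from 34771970 to 34777547) had 183.5, 305.5 and 274.0 RPKM in fasted wild type and 321.6, 308.1 and 302.8 in fasted Lpin1-/-. After refeeding it had 1336.3, 955.9 and 1693.4 in wild type and 520.9, 854.2 and 801.4 in Lpin1-/-. All refed libraries lay above all fasted ones, and the refed Lpin1-/- libraries lay below those of wild type, by a log2 fold change of −0.87 that missed the threshold (SE 0.281, limma adjusted p = 0.0919). The mean in wild type was 5.22 times higher after refeeding, and in Lpin1-/- 2.33 times.

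GRP94 (Hsp90b1, on chromosome 10), the HSP90 of the ER, had the smallest adjusted p of the chaperones between genotypes in refed liver, though not the largest difference. It had 193.5, 198.6 and 221.8 RPKM in fasted wild type and 180.5, 254.9 and 185.0 in fasted Lpin1-/-, which overlapped. In refed liver it had 890.0, 582.6 and 1044.7 in wild type against 296.2, 379.1 and 377.6 in Lpin1-/-, which did not overlap. Hsp90b1 was lower in refed Lpin1-/- by a log2 fold change of −1.22 (SE 0.241, limma adjusted p = 0.0145, range 0.00707 to 0.0623 over 20 alternatives), and the call was lost without refed wild-type replicate 1 or 3 or refed Lpin1-/- replicate 1. In fasted liver the difference was 0.00 (SE 0.241).

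Creld2, an ER protein with isomerase-like activity that ER stress is known to induce, and Sdf2l1, a partner of the ER J proteins, had the steepest differences of the group. Creld2 had 15.98, 34.59 and 29.62 RPKM in fasted wild type, 21.79, 30.08 and 14.22 in fasted Lpin1-/-, 468.6, 194.9 and 602.9 in refed wild type and 41.13, 127.5 and 107.6 in refed Lpin1-/-. Refed wild type stood above all other libraries, and the refed Lpin1-/- libraries stood between it and the fasted ones. Creld2 was lower in refed Lpin1-/- by −2.19 (SE 0.506, limma adjusted p = 0.0284, range 0.0153 to 0.102 over 20 alternatives), a call that 13 of the 20 kept. Among the libraries, it was lost without replicate 1 or 3 of refed wild type or of refed Lpin1-/-. Sdf2l1 had 303.7, 196.7 and 288.1 RPKM in refed wild type against 24.35, 99.09 and 88.04 in refed Lpin1-/-, with no overlap, and its difference of −2.09 missed the threshold (SE 0.605, limma adjusted p = 0.0647, and 0.0275 without fasted wild-type replicate 1).

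Hyou1 (GRP170), the nucleotide exchange factor of BiP, differed from these in that the genotypes stood apart in both feeding states. It had 14.8, 14.19 and 16.02 RPKM in fasted wild type and 5.72, 9.71 and 6.74 in fasted Lpin1-/-. In refed liver it had 126.4, 70.33 and 172.2 in wild type and 48.85, 64.2 and 61.42 in Lpin1-/-. The genotypes were thus apart before and after the meal. The log2 fold change of Lpin1-/- over wild type was −0.96 in fasted liver (SE 0.291, limma adjusted p = 0.0402), a call that 6 of 20 alternatives kept and that was lost without any 1 of the fasted wild-type libraries, among others, and −0.99 in refed liver (SE 0.291, limma adjusted p = 0.0677, and 0.0146 without refed wild-type replicate 2). The rise with refeeding had a log2 size of 2.86 in wild type and 2.84 in Lpin1-/-, and their difference was −0.03 (SE 0.411).

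The remaining 3 chaperones did not pass the threshold between genotypes. Calreticulin (Calr), the soluble lectin chaperone for newly made glycoproteins, was the most abundant of them in RPKM, with 1120.5 to 1214.3 in refed wild type and 394.2 to 713.6 in refed Lpin1-/-, without overlap (−1.01, SE 0.314, limma adjusted p = 0.08, and 0.035 without fasted wild-type replicate 1). In fasted liver Calr had 258.8 to 509.9 in wild type and 183.3 to 267.4 in Lpin1-/-, which overlapped. Its difference there, −0.77, missed the threshold (SE 0.314, limma adjusted p = 0.111). It passed without fasted wild-type replicate 1 (limma adjusted p = 0.0259) and with the length trend removed (limma adjusted p = 0.0438). Its membrane-bound counterpart calnexin (Canx) had 126.0 to 137.8 in refed wild type against 87.17 to 112.1 in refed Lpin1-/- (−0.47, SE 0.219, limma adjusted p = 0.233). Manf, a small ER protein that binds BiP and is also secreted, had 437.1 to 734.5 against 149.0 to 381.4 (−1.07, SE 0.511, limma adjusted p = 0.242). For all 8 chaperones the refed Lpin1-/- libraries lay below the refed wild-type ones without overlap. Of all genes, 33.9% did not overlap there, in either direction.

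**Figure D4:**
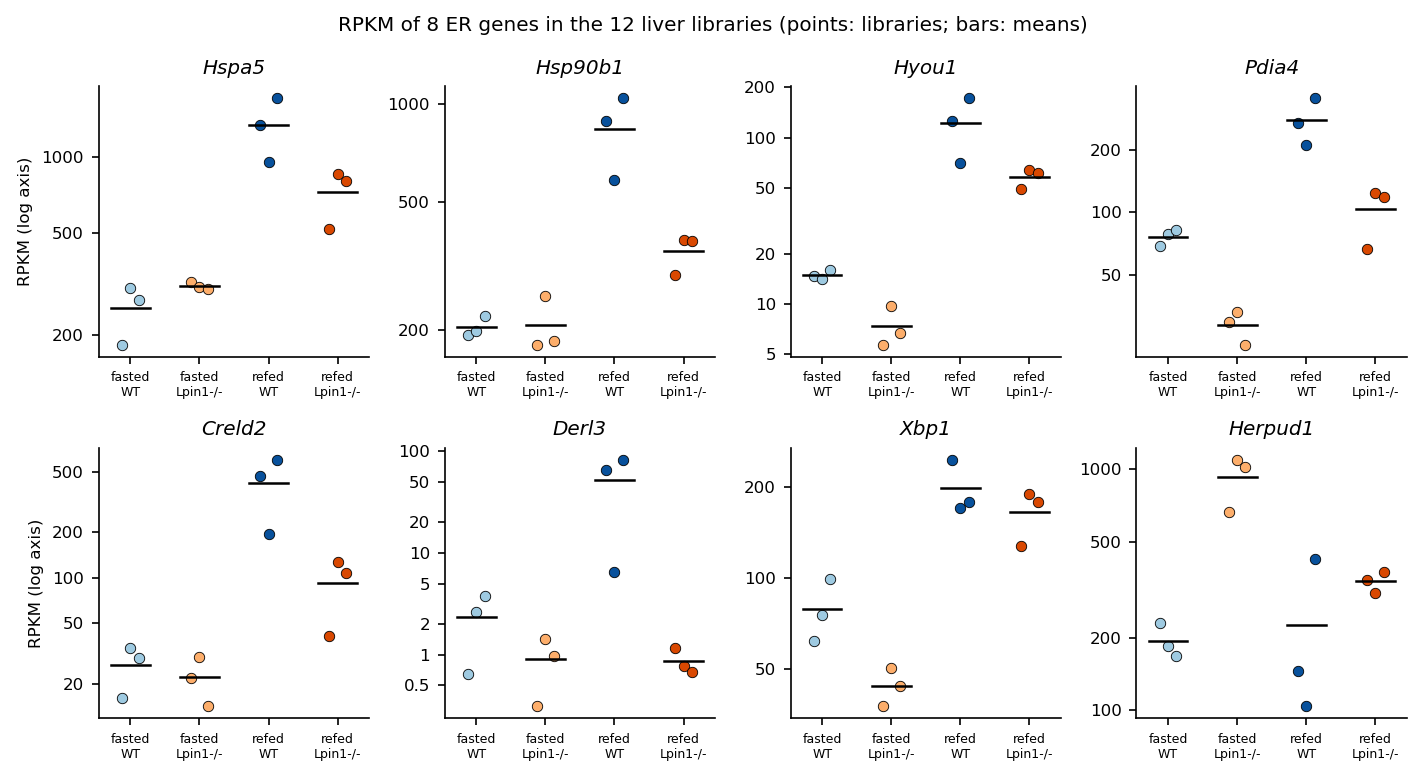
RPKM on a log axis for 8 members in the 12 libraries; points are libraries and bars are group means (n = 3). In Hspa5, Hsp90b1, Creld2 and Derl3 the refed wild-type libraries lie above the refed Lpin1-/- ones; in Hyou1 and Pdia4 the genotypes stand apart in both states; in Herpud1 the fasted Lpin1-/- libraries are highest.

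The 4 protein disulfide isomerases fell into separate patterns, with 3 of 4 passing the threshold between genotypes in refed liver. Pdia4 (ERp72, on chromosome 6) stood apart by genotype in both states. It had 68.99, 78.31 and 81.85 RPKM in fasted wild type against 29.64, 32.99 and 22.99 in fasted Lpin1-/-, and 269.9, 211.2 and 355.6 in refed wild type against 66.7, 124.3 and 119.0 in refed Lpin1-/-. Of the refed Lpin1-/- libraries, 1 lay below the fasted wild-type range and 2 lay above it. The log2 fold change of Lpin1-/- over wild type was −1.40 in fasted liver (SE 0.266, limma adjusted p = 0.00492, range 0.00185 to 0.0265 over 20 alternatives) and −1.44 in refed liver (SE 0.266, limma adjusted p = 0.0107, range 0.00778 to 0.0442). It was the only member called in both states. Its rise with refeeding was 1.83 in wild type and 1.78 in Lpin1-/- on the log2 scale, with a difference of −0.04 (SE 0.377).

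Pdia6 (P5) and Pdia3 (ERp57, the isomerase that works with calnexin and calreticulin) had instead little difference between fasted and refed Lpin1-/- liver. Pdia6 had 189.8, 203.0 and 117.9 RPKM in fasted and 132.7, 172.4 and 176.0 in refed Lpin1-/- liver, which overlapped, against 96.86, 170.8 and 172.2 in fasted and 369.6, 442.1 and 462.3 in refed wild type, which did not. Pdia3 had 280.2, 246.0 and 143.2 in fasted and 188.8, 312.6 and 311.4 in refed Lpin1-/-, against 122.5, 257.5 and 244.2 in fasted and 623.0, 674.6 and 728.2 in refed wild type. In refed liver both were lower in Lpin1-/-, Pdia6 by −1.40 (SE 0.274, limma adjusted p = 0.014, lost in 1 of 20 alternatives, without refed Lpin1-/- replicate 1) and Pdia3 by −1.35 (SE 0.337, limma adjusted p = 0.0381, kept in 9 of 20 and lost without any 1 of the refed libraries). With replicate numbers as a block, Pdia3 was not called (limma adjusted p = 0.0558). P4hb, the founding member of the family and the most abundant isomerase here, had 778.6 to 929.4 in refed wild type and 469.2 to 640.8 in refed Lpin1-/- (−0.59, SE 0.28, limma adjusted p = 0.238). In fasted Lpin1-/- it had 327.6 to 571.2, so its fasted and refed Lpin1-/- libraries overlapped as well.

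The 3 J proteins, which steer client proteins to BiP, had lower means in Lpin1-/- in refed liver, and none passed the threshold. Dnajb11 (ERdj3) had 172.1, 138.3 and 210.0 RPKM in refed wild type and 67.47, 104.6 and 100.7 in refed Lpin1-/-, which did not overlap (−0.93, SE 0.257, limma adjusted p = 0.0541, and 0.032 without fasted wild-type replicate 1). Dnajc3 (p58IPK), also known as an inhibitor of the kinase PERK, had 98.13 to 137.9 against 92.06 to 101.6, which overlapped. Dnajb9 (ERdj4), a repressor of IRE1α, had 65.72 to 117.8 against 55.25 to 77.51, and also overlapped. In fasted liver the log2 fold change of Lpin1-/- over wild type was 0.45 for Dnajc3 (SE 0.207, limma adjusted p = 0.151). After median-ratio rescaling Dnajc3 passed there, higher in Lpin1-/- (0.66, limma adjusted p = 0.0454). Dnajb9 was at 0.34 and Dnajb11 at −0.37 in fasted liver, short of the threshold.

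Of the 3 sensors and transcription factors, none passed the threshold between genotypes in refed liver, and Xbp1 passed it in fasted liver. Xbp1, whose mRNA is spliced by IRE1α to make the active factor, had 61.59, 75.46 and 99.03 RPKM in fasted wild type and 37.57, 50.17 and 43.83 in fasted Lpin1-/-. In refed liver it had 246.2, 170.6 and 178.1 in wild type and 127.5, 189.1 and 178.5 in Lpin1-/-, which overlapped. Xbp1 was lower in fasted Lpin1-/- by −0.81 (SE 0.235, limma adjusted p = 0.0337, kept in 11 of 20 alternatives and lost without any 1 of the fasted Lpin1-/- libraries, among others), against −0.26 in refed liver (SE 0.235). These values count total Xbp1 mRNA and do not separate its spliced from its unspliced form.

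Ern1, which encodes IRE1α, had 10.03, 2.88 and 3.99 RPKM in fasted wild type and 1.33, 2.23 and 2.78 in fasted Lpin1-/-, a difference of −0.97 that missed the threshold (SE 0.368, limma adjusted p = 0.0893, and 0.0358 without fasted wild-type replicate 2). Refed levels were 5.4 to 10.3 in wild type and 5.22 to 7.42 in Lpin1-/-. Ern1 and Xbp1 are 2 of the 4 members whose interaction value was above 0 (0.881 and 0.547), that is, whose mean difference between fasted and refed liver was larger in Lpin1-/-. Atf6 had 8.27 ± 4.85 in fasted wild type and 12.1 ± 5.61 in fasted Lpin1-/- (SD, n = 3), and 10.9 ± 2.29 and 14.7 ± 7.1 in refed wild type and Lpin1-/-. Its groups overlapped in all 4 comparisons.

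ER-associated degradation returns misfolded protein to the cytosol, where it is ubiquitinated and destroyed. Its 7 members held both the lowest log2 fold change of Lpin1-/- over wild type and the 1 member called higher. Derl3 (ENSMUSG00000009092.5, chromosome 10 from 75893413 to 75895941), a derlin of the retrotranslocation machinery, was scarce in all groups but refed wild type. It had 0.64, 2.63 and 3.78 RPKM in fasted wild type, 0.311, 1.42 and 0.956 in fasted Lpin1-/-, 66.28, 6.53 and 82.57 in refed wild type and 1.17, 0.765 and 0.671 in refed Lpin1-/-. Refed wild-type replicate 2, the library with the high Marco value, lay far below the other 2 of its group but above every library of the other groups. Mean Derl3 was 22.05 times higher in refed than in fasted wild-type liver and 0.968 times in Lpin1-/-. In refed liver it was lower in Lpin1-/- by a log2 fold change of −4.23 (SE 0.742, limma adjusted p = 0.00911, range 0.000483 to 0.0384 over 20 alternatives, all of which kept the call). On the log2(RPKM + 1) scale such values understate the change of low genes, and the ratio of the group means was 59.7. Its paralogs Derl1 and Derl2 had only 1.29 and 1.59 times more RNA in refed wild-type than in refed Lpin1-/- liver, and neither passed the threshold.

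Herpud1 (ENSMUSG00000031770.16, chromosome 8 from 94386438 to 94395377), which encodes the membrane protein Herp that organises the degradation complex, went the other way. It had 229.3, 185.3 and 167.6 RPKM in fasted wild type and 667.9, 1094.3 and 1025.5 in fasted Lpin1-/-, which did not overlap. After refeeding it had 146.1, 104.3 and 425.1 in wild type and 347.4, 307.1 and 373.4 in Lpin1-/-, where wild-type replicate 3 lay above all 3 of Lpin1-/-. Herpud1 was higher in fasted Lpin1-/- by a log2 fold change of 2.23, or 4.79 times in the means (SE 0.419, limma adjusted p = 0.00461, range 0.000726 to 0.0254 over 20 alternatives, all of which kept the call). In refed liver the difference was 0.87 (SE 0.419, limma adjusted p = 0.248), and without wild-type replicate 3 it was 1.46 and passed (SE 0.273, limma adjusted p = 0.0252). Herpud1 alone made up 18.8% to 32.9% of the members' summed RPKM in fasted Lpin1-/- liver, against 5.0% to 9.85% in fasted wild type. In Lpin1-/- liver its log2 fold change of refed over fasted, −1.41, was the lowest among the members.

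The ubiquitin ligase HRD1 (Syvn1) and its partner Sel1l, which form the core of the degradation complex, were not called between genotypes. Syvn1 had 19.62 to 28.26 RPKM in fasted wild type and 11.09 to 24.7 in fasted Lpin1-/-. In refed liver it had 124.4, 47.75 and 190.6 in wild type against 63.46, 63.43 and 63.64 in Lpin1-/-, so the narrow Lpin1-/- group lay within the wild-type spread. Sel1l had 19.92 to 34.69 in refed wild type and 17.58 to 26.05 in refed Lpin1-/-. Edem1, a lectin that hands over misfolded glycoproteins, had 53.57 to 60.16 and 41.37 to 52.32, without overlap and short of the threshold (−0.32, SE 0.2, limma adjusted p = 0.378).

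Of the 5 genes of protein entry, only Ssr1 passed the threshold between genotypes. Ssr1, a subunit of the translocon-associated complex, had 77.71, 83.52 and 98.45 RPKM in refed wild type against 50.95, 54.27 and 54.23 in refed Lpin1-/-, a log2 fold change of −0.69 (SE 0.17, limma adjusted p = 0.0371) that 9 of 20 alternatives kept and that was lost without any 1 of the refed libraries and with replicate numbers as a block (limma adjusted p = 0.0716). Its partner Ssr3 had 117.4 to 131.2 against 89.69 to 111.0. Sec61a1 and Sec61b, subunits of the channel itself, had 79.3 to 110.5 against 58.47 to 72.84 and 178.1 to 211.0 against 57.18 to 122.4. Sec11c, a catalytic subunit of the signal peptidase, had 58.4 to 74.05 against 34.23 to 54.97. For all 5 the refed Lpin1-/- libraries lay wholly below those of wild type, where 33.9% of all genes stood apart in either direction. In fasted liver all 5 overlapped, where 32.9% of all genes stood apart.

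The COPII coat subunits Sec23b and Sec24d bend the ER membrane and select cargo for export. Sec23b, like Hyou1, had genotypes that stood apart in both feeding states, though neither difference passed the threshold. Sec23b had 10.96, 7.5 and 8.76 RPKM in fasted wild type and 4.43, 4.98 and 7.29 in fasted Lpin1-/-, and 28.57, 22.64 and 43.94 in refed wild type against 18.99, 19.35 and 17.86 in refed Lpin1-/-. These were differences of −0.63 in fasted (SE 0.25, limma adjusted p = 0.103) and −0.68 in refed liver (SE 0.25, limma adjusted p = 0.131). Its log2 rise with refeeding was 1.66 in wild type and 1.61 in Lpin1-/-. Sec24d had 12.72 to 26.68 and 8.52 to 13.12 in fasted wild type and Lpin1-/-, which overlapped, and 23.69 to 40.91 against 19.22 to 22.33 in refed liver.

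The wider list of other ER genes was written from general knowledge but with earlier results of these data known, so its tests are not independent of them. Of 116 genes tested, 13 were higher and none lower after refeeding in wild type, beside 1.72% of all genes called, with a median log2 fold change of 0.457 (all genes, 0.185). At an unadjusted p under 0.05 there were 53 of the 116, beside 1594 of all 11507 genes. In Lpin1-/- 26 were higher and 4 lower, beside 20.7% of all genes called, with a median of 0.34 (all genes, 0.25). With the libraries rescaled, 0 were called in wild type, and 12 higher and 7 lower in Lpin1-/-. With 1 library left out the wild-type count was 0 to 16, with 0 without fasted wild-type replicate 2, 5 without replicate 3, 4 and 1 without refed wild-type replicates 1 and 3, and 6 and 5 without refed Lpin1-/- replicates 2 and 3. The Lpin1-/- count was 17 to 36, with 17 and 19 without refed Lpin1-/- replicates 2 and 3. Srprb, the membrane anchor of the signal recognition particle receptor, had 11.71 to 16.14 RPKM in fasted and 32.76 to 48.89 in refed wild type (1.46, SE 0.215, limma adjusted p = 0.012, lost without fasted wild-type replicate 2 or refed wild-type replicate 3). Ddit3, the gene of the PERK-branch factor CHOP, had 5.57 to 10.86 and 20.68 to 42.65 (1.70, SE 0.335, limma adjusted p = 0.0299), a call lost without any 1 of the 6 wild-type libraries. In Lpin1-/- the COPII subunit Sec24c rose, with 5.05 to 5.75 RPKM in fasted and 18.9 to 25.04 in refed liver (1.86, SE 0.266, limma adjusted p = 0.00135). The thioredoxin-related Tmx4 rose as well, with 1.67 to 3.05 and 6.58 to 15.24 (1.54, SE 0.334, limma adjusted p = 0.00907).

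The 4 wider genes called lower with refeeding in Lpin1-/- were all of the PERK branch, beside 2.92% of all genes called lower. They were Atf3, Chac1, and, named after their values were seen, Atf4 and Eif4ebp1. Of the 10 genes of that branch, 1 was called higher. Atf3, a stress-induced transcription factor, had 0.81, 0.466 and 0.858 RPKM in fasted wild type and 7.69, 12.69 and 20.87 in fasted Lpin1-/-, then 2.53, 5.84 and 2.59 in refed wild type and 1.85, 1.06 and 1.44 in refed Lpin1-/-. It was higher in fasted Lpin1-/- than in fasted wild type by a log2 fold change of 3.02 (SE 0.341, limma adjusted p = 0.000399), and fell with refeeding by 2.50 in Lpin1-/- on the log2 scale (limma adjusted p = 0.00103). It was the 1 wider gene called for the interaction, at −3.88 (SE 0.482, limma adjusted p = 0.00664). Chac1, a glutathione-degrading enzyme of the same branch, had 2.27, 13.28 and 52.66 in fasted and 1.08 to 1.51 in refed Lpin1-/- (−2.54, SE 0.775, limma adjusted p = 0.039, kept in 7 of 20 alternatives and lost without any 1 of the refed Lpin1-/- libraries, among others).

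By genotype in fasted liver, 6 wider genes were higher and 11 lower in Lpin1-/-, a total of 17 of 116 that was no larger a share than the 18.8% of all genes called. The median was −0.075 (all genes, −0.143), and rescaling gave 6 and 6 and a median of 0.088. The total of 17 became 7 without fasted wild-type replicate 3. Besides Atf3, the phosphatase subunit Ppp1r15a, which undoes the PERK signal, had 10.37 to 22.81 RPKM in fasted Lpin1-/- against 4.76 to 6.17 in fasted wild type (1.21, SE 0.277, limma adjusted p = 0.0121). Sec24c was lower, with 5.05 to 5.75 against 10.61 to 25.14 (−1.40, SE 0.266, limma adjusted p = 0.00492), as was the cargo receptor subunit Mcfd2, with 79.86 to 104.9 against 152.8 to 194.8 (−0.99, SE 0.238, limma adjusted p = 0.0149, lost without fasted wild-type replicate 3). In refed liver 1 wider gene was higher and 4 lower, beside 6.67% of all genes called, with a median of −0.3 (all genes, −0.068). With replicate numbers as a block 3 were called. Tmx4 was higher, with 6.58 to 15.24 against 1.61 to 2.47 (1.70, SE 0.334, limma adjusted p = 0.0142, lost without refed wild-type replicate 3). The isomerase Txndc5 was lower, with 42.96 to 57.79 against 88.87 to 134.7 (−0.99, SE 0.22, limma adjusted p = 0.0236), and so was Creld1, the paralog of Creld2, with 20.69 to 31.68 against 36.31 to 65.03 (−0.99, SE 0.251, limma adjusted p = 0.0402). Leaving out 1 library gave 0 to 7 such genes, with 0 without refed wild-type replicate 3 and 1 without any 1 of the refed Lpin1-/- libraries. It gave 3 without refed wild-type replicate 1 or 2, fasted wild-type replicate 3 or fasted Lpin1-/- replicate 2. Txndc5 and Creld1 were both lost without any 1 of the refed Lpin1-/- libraries, and Creld1 also with the block (limma adjusted p = 0.0619).

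Exon inclusion is a readout that the choice of genes did not use. The exon-skipping tables gave 227 events of members in fasted liver, of which 207 in 28 genes had at least 10 counts in every library. Between genotypes 27 of these, in 13 genes, passed the threshold in limma on the log2 ratio of inclusion to skipping counts, beside 11.3% of 69644 events in all genes. Of the 27, 9 had higher inclusion in Lpin1-/-. Over all 207 tested member events, called or not, the median absolute change was 0.19 percentage points, against 0.78 over all events. Of the 207, 5 changed by at least 10 points, a count not made over all events. In refed liver 33 of 235 member events had an unadjusted limma p under 0.05, a count likewise not made over all events. Of the 235, 1 passed the threshold, an exon of Herpud1 that differed by 0.14 points, beside 0.97% of 65231 events. With any 1 refed library left out it was lost. The fasted count was 13 to 32 with 1 library left out, with 15, 17 and 13 without the wild-type library listed in position 1, 2 and 3. The next refed events by p were versions of 1 exon of Pdia3, and did not pass.

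The 3 member events with the smallest p in fasted liver were versions of 1 coding exon of Herpud1, exon 7 of 8, that share their 3′ end and their skipping reads. The exon is shown with the shortest version, of 75 bases, in capitals.
Herpud1 exon, chr8:94393796-94393901, plus strand: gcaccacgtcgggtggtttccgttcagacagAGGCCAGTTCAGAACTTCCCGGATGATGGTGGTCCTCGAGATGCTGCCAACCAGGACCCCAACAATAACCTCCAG
For that version, inclusion was 99.93%, 100% and 99.91% in the fasted wild-type libraries and 91.85%, 94.23% and 95.26% in fasted Lpin1-/-, with 1, 0 and 1 skipping reads against 402, 454 and 342. Inclusion was thus lower in every Lpin1-/- library, by 6.17 points on average (limma adjusted p = 0.000841). The call was kept in 8 of 10 alternatives, and lost with libraries weighted by the precision of their counts (limma adjusted p = 0.151) and where a change of at least 0.1 in inclusion was also asked for. In refed liver the 79-base version of the exon was included at 99.61% to 100% in wild type and 99.96% to 100% in Lpin1-/-. The fasted Lpin1-/- group, with the skipped exon, was also the group with the highest Herpud1 mRNA.

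Syvn1, the next gene in order of p and named after its values were seen, had the same pattern in a coding exon on chromosome 19, shown with the 96-base version in capitals.
Syvn1 exon, chr19:6050941-6051069, plus strand: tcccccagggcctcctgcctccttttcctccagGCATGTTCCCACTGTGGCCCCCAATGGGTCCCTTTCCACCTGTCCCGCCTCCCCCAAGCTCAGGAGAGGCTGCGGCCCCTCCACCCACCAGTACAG
Inclusion was 99.62%, 100% and 100% in fasted wild type and 84.42%, 88.44% and 89.24% in fasted Lpin1-/-, a difference of −12.5 points (limma adjusted p = 0.000961, kept in 10 of 10 alternatives). It rested on 14, 24 and 25 skipping reads in Lpin1-/- against 1, 0 and 0 in wild type. After refeeding, inclusion lay at 98.36% to 100% for Lpin1-/- and 99.78% to 100% for wild type. An 18-base exon of Sel1l, its partner, had 54.26%, 94.48% and 69.7% in fasted Lpin1-/- against 96.51% to 99.04% in wild type, on 3 to 11 skipping reads (limma adjusted p = 0.046). Also named after their values were seen, Ern1 and Atf6 had changes in the sensors. An exon of Ern1 was included at 78.92% to 100% in fasted Lpin1-/- and at 100% in wild type. It rested on at most 6 skipping reads (limma adjusted p = 0.0352). An exon of Atf6, with read counts not given here, was included at 2.28% to 4.79% against 0% (limma adjusted p = 0.00275). The events of Sel1l, Ern1 and Atf6 were not followed singly through the alternatives. With weights, 3 member events were called in fasted liver in place of 27. Lists of libraries in these tables carry no replicate numbers, so the values cannot be set beside the RPKM of single mice.

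**Figure D5:**
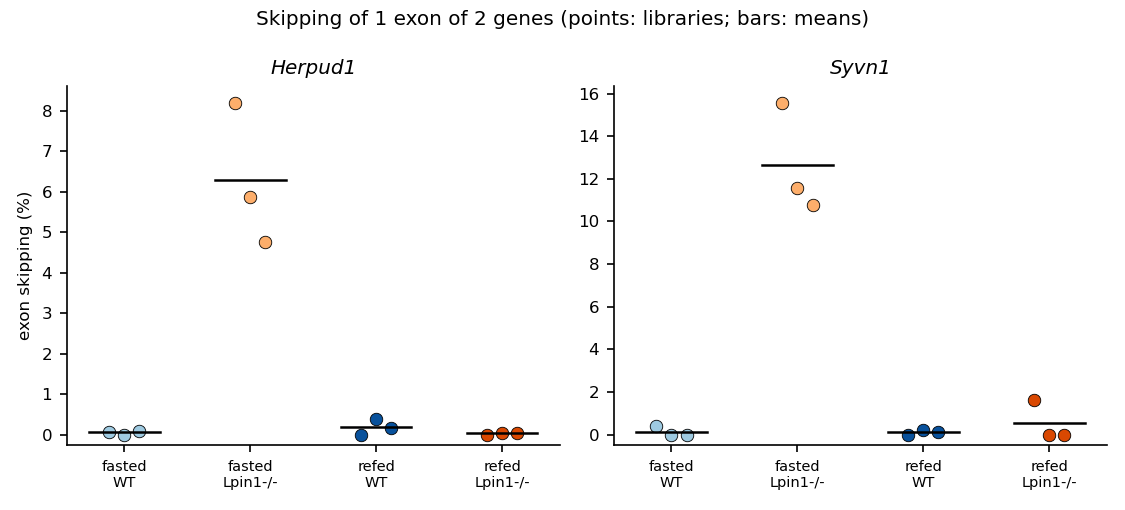
Share of exon skipping (100% minus inclusion) for the 79-base version of the Herpud1 exon and the 96-base version of the Syvn1 exon; points are libraries and bars are means (n = 3). Only the fasted Lpin1-/- libraries stand well above 0, with inclusion of 91.8% to 95.25% in Herpud1 and 84.42% to 89.24% in Syvn1.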

How the data were processed

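RNA was sequenced from 12 livers in 4 groups of 3 mice, grouped by the deposited labels, with stranded paired-end libraries. RPKM values per gene were made by the authors, who aligned reads to GRCm38 with Ensembl annotation. The submitters' processing notes name HISAT2 2.0.5, HTSeq 0.6.0 and DESeq2 1.20.0. Inclusion and skipping counts per exon event were deposited as made with rMATS by the authors. Columns of the authors' own comparisons (p-values, false discovery rates and differences in inclusion) were not used.

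From these files, log2(RPKM + 1) of the 11507 of 22456 genes with a mean RPKM of at least 0.5 was fitted in 1 model of the 4 groups with limma 3.58.1 (R 4.3.3, trended prior). Adjusted p-values are Benjamini-Hochberg values over all genes, with a threshold of 0.05. All 32 members passed the filter. A fold change on this scale understates the change of low genes. Exon events with at least 10 counts in each library were tested in limma on the log2 ratio of their length-scaled inclusion and skipping counts, after adding 0.5. Depth is unknown from RPKM. The expression p-values rest on 1 spread per gene, pooled over the 12 libraries of all 4 groups (3 mice each) and moderated across genes. They do not rest on the spread of the compared groups alone. The exon p-values rest in the same way on the libraries of 1 feeding state. Replicate numbers come from the sample titles, which do not say that a number marks a shared litter or day. For refed wild type against refed Lpin1-/- every same-number pair had correlated deviations from the group means (0.186, 0.297 and 0.162, all over 0.1), so the fit with replicate number as a block, over all 12 libraries, is given there where it changes a call. Scripts were tested on simulated data.

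The members and lists were chosen with earlier results of these data known. All members were named. Of the wider list, the rule took, per contrast, the 2 highest and the 2 lowest log2 fold changes among called genes whose groups did not overlap, and of exon events the 3 with the smallest p in each state. Promoters are RefSeq windows of GRCm38.p6, and exon sequences and gene positions are from GENCODE transcripts of GRCm38. Tables were joined in Python 3.11.15 with pandas 2.3.3, and figures drawn with matplotlib 3.10.9. Alternatives changed the pseudocount, the filter, the scaling, the libraries fitted, a replicate block and, for exons, the count minimum, the added count, weights and a minimum difference.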

Additional observations from a re-analysis of the deposited data

Results flagged for a closer look

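No member was singled out by these rules, and 2 genes of the wider ER list were. Atf3, a stress-induced transcription factor, had an interaction of −3.882 on the log2 scale (SE 0.482, limma adjusted p = 0.00664). Its 3 libraries rose with refeeding in wild type, from 0.466 to 0.858 RPKM to 2.53 to 5.84, and fell in Lpin1-/-, from 7.69 to 20.87 RPKM to 1.06 to 1.85, with no overlap in either. Lpin1-/- lay above wild type in all fasted libraries and below it in all refed ones.

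Sil1, which encodes a nucleotide exchange factor of BiP, had an interaction of −0.503 that missed the threshold (limma adjusted p = 0.235), so the difference is not shown by a test. It drew attention because its groups moved apart in opposite directions. Sil1 had 29.41 to 34.72 RPKM in fasted and 35.38 to 44.97 in refed wild type, and 36.88 to 41.99 in fasted and 32.95 to 34.1 in refed Lpin1-/-.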

How the results depend on the processing

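No called member changed direction under the alternatives run, and neither did the wider genes named by the rule. Other called wider genes and exon events were not followed for direction. For genotype in fasted liver, however, the median of the members went from −0.071 to 0.131 after rescaling. That of the wider list went from −0.075 to 0.088. Depth limits these results, since RPKM does not hold it, and 3 mice a group leave wide errors. Of the 18 members called for feeding in wild type, 6 were called after median-ratio rescaling, 11 with a replicate block and 0 with only the libraries compared, where fewer samples set the spread; without 1 library the count was 6 to 19. For feeding in Lpin1-/- the 16 became 6 after rescaling and 5 to 17 without 1 library. For genotype in fasted liver the 4 became 2 with the block and 2 with only the libraries compared, and 2 to 4 without 1 library. For genotype in refed liver the 7 became 2 to 10 without 1 library. For the interaction the 0 became 1 with the length trend removed, and 0 to 1 without 1 library. Removal of the length trend and omission of 2 libraries were chosen after seeing the data. The 2 left out were fasted wild-type replicate 1 and refed Lpin1-/- replicate 1, with the largest positive slopes. Fasted Lpin1-/- replicate 1 had the steepest slope, −0.245, and was kept.

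In the wider list, feeding in wild type went from 13 to 0 after rescaling, 7 with the block, 0 with only the libraries compared and 0 to 16 without 1 library. Feeding in Lpin1-/- went from 30 to 19 after rescaling and 17 to 36 without 1 library. Genotype in fasted liver went from 17 to 7 with only the libraries compared and 7 to 23 without 1 library. Genotype in refed liver went from 5 to 3 after rescaling, 3 with the block, 11 with the length trend removed, 1 without the 2 libraries and 0 to 7 without 1 library. The interaction went from 1 to 0 with a mean RPKM of at least 5, where Atf3 was not tested, to 2 with the length trend removed and 2 without the 2 libraries. Exon events went from 27 to 3 with weights and 3 with a minimum difference in fasted liver, with 13 to 32 without 1 library. In refed liver the 1 event became 4 with at least 50 counts, 5 with 1 added to each count, 0 with weights, 0 with a minimum difference and 0 without any 1 library. Except where a clause above names the construction, the cause was not tested.

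The replicate block is set beside the results for genotype in refed liver, where the numbers met the criterion for pairing; there it gave 5 members. For the other contrasts they did not: over the 6 pairs of groups, 8 of 18 correlations between libraries of the same number were over 0.1, with a range of −0.474 to 0.743. The replicate block gave 12 members for feeding in Lpin1-/- and 0 for the interaction.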
